A study of Homo sapiens and Mus musculus with 61 samples.

Results

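The beta-globin cluster on human chromosome 11 lies between olfactory receptor genes, and the DNA around it was examined here on both sides of the guide targets. Members were all regions, in any of the 17 deposited tables, whose centre fell in hg19 chr11:2000000-9000000 but outside chr11:5200000-5330000, which holds the globin genes and their control elements. There were 450 such entries of 143198 regions listed in all tables. They came from 173 separate loci once overlapping entries were merged. The choice among listed regions used position only. How regions came to be listed in each table is not given in the sources used here, so measured values may have entered by that route.

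The libraries come from K562, a human leukaemia cell line, and hold DNA recovered by CAPTURE-ChIP-seq, in which a biotinylated, catalytically inactive Cas9 is led to a site by a guide RNA and pulled down on streptavidin. Targeting guides had 42 libraries: sgHS1, sgHS2, sgHS3, sgHS4 and sgHS5 against the hypersensitive sites of the locus control region (LCR), sgHBG, sgHBD-1kb and sgHBB against sites at the globin genes, and sg3'HS1 at the far end. There were also second guides marked sg2 to HS1 through HS5, HBG and HBB, and a group labelled sgHS1-5. The controls were 4 libraries with sgGal4, a non-targeting guide, which every table shares. Group sizes ran from 1 library (sgHS2-sg2, sgHS3-sg2, sgHBB) to 6 (sgHS1-5). The other 15 samples were not analysed here.

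Cas9 searches DNA by first meeting a short motif, NGG for the common enzyme, and then pairing its guide with the bases next to it, called the seed, before the rest of the guide can pair. Inactive Cas9 can therefore rest on sites that share only a seed with the intended one. DNA held close to a target in the nucleus can also enter a pull-down with it. The flanks were examined for capture of DNA near the cluster, by distance from the target, and for bases shared with it.

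Each table gives a log2 level for every guide library and every sgGal4 library in 300 bp regions. The log2 ratio below is that of the mean linear level in guide libraries over that in sgGal4 libraries, within 1 table. A region was called raised at a log2 ratio of at least 1, or lowered at -1 or below, with a limma adjusted p below 0.05. Guide libraries held 6980 to 431738 recovered reads in listed regions outside the cluster. The first 2 sgGal4 libraries held 41120 to 169941 and the other 2 held 6495 to 18646, with 35.1% of the members at 0 reads in those shallow 2. Replicates are numbered in the labels without a statement that they are separate cultures, so p-values measure the spread between libraries only.

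Sequences of members were compared with those of the targets, and those of the tables with the clearest matches are shown. For every table, each 20-base site next to an NGG in the target region, on either strand, was a candidate. The candidate kept was the one whose last 6 bases, next to an NGG, marked the highest ratios among listed regions outside chr11:2000000-9000000. No flank member entered that choice, although it used the ratios of the same libraries. The designed guide sequences were not used here. The chosen sites of 5 tables are, 5′ to 3′, with the 6 bases and the GG in capitals:

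sgHS4 target, chr11:5309558-5309580, minus strand: cccactcagcagctATGAGAtGG
sgHS5 target, chr11:5312559-5312581, minus strand: tgcccccaccttacAGGGACaGG
sgHS2-sg2 target, chr11:5301646-5301668, minus strand: gtggcctctataccTAGAAGcGG
sgHBD-1kb target, chr11:5256970-5256992, plus strand: gtacaatagtataaCCCCTTtGG
sg3'HS1 target, chr11:5226266-5226288, plus strand: gctttagtgtaagcGAGGTCaGG

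The members below, named by the nearest gene start, carry the same 6 bases and are shown to let the match be read base by base. Sequence and coordinates are from GRCh37, which shares the coordinates of hg19, and capitals mark the GG and the unbroken run of bases next to the motif that equals the target site:

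sgHS4 member near RRM1, chr11:4111965-4111987, plus strand: aaatacagcCAGCTATGAGAaGG
sgHS4 member near RIC3, chr11:8221089-8221111, plus strand: ggatttagttAGCTATGAGAgGG
sgHS5 member near ART5, chr11:3647698-3647720, minus strand: aggctgccaggTACAGGGACaGG
sgHS5 member near RRP8, chr11:6589932-6589954, minus strand: catggcccagctcCAGGGACtGG
sgHS5 member near RRM1, chr11:4167439-4167461, minus strand: agcaggcagtactCAGGGACaGG
sgHS5 member near RPL27A, chr11:8725759-8725781, plus strand: accaacatctgcACAGGGACaGG
sgHS2-sg2 member near ZNF195, chr11:3426184-3426206, minus strand: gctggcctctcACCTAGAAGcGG
sgHS2-sg2 member near KCNQ1, chr11:2638794-2638816, plus strand: tttgggaaTATACCTAGAAGaGG
sgHBD-1kb member near OR51D1, chr11:4658336-4658358, plus strand: gacacagcttcgatCCCCTTgGG
sg3'HS1 member near RPL27A, chr11:8710455-8710477, minus strand: gtgaggacgccactGAGGTCgGG
sg3'HS1 member near PPFIBP2, chr11:7534482-7534504, minus strand: tcttatgaagagcCGAGGTCaGG
sg3'HS1 member near STIM1, chr11:3877076-3877098, plus strand: ctcttcggcaggGCGAGGTCaGG

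Outside the cluster, no region within 100 kb of a target was listed in any table. The closest member, at chr11:5145266-5145565 in the sgHBB table, lay 103 kb from the HBB target and held 26 reads with the guide, against 7, 16, 3 and 0 with sgGal4. Its log2 ratio was 0.84 (limma adjusted p = 0.246), and per 100000 listed reads the guide's 31.4 lay within the 0 to 39.7 of sgGal4. It is 14171 bp from the start of the olfactory receptor gene OR52A5. The overlapping regions of sgHS5 and sgHS1-5 had log2 ratios of 0.72 and 0.36, neither of them called. On the LCR side the closest to the cluster was chr11:5465700-5465999 in the sgHS2-sg2 table, near OR51I1 and 164 kb from its target, with 13 reads in the guide library against 0, 1, 0 and 2 with sgGal4. Its log2 ratio was 1.04 (limma adjusted p = 0.413). The targets themselves had log2 ratios of 5.50 to 9.67.

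Inside the cluster, no listed region beside the targets of its own table was called raised. A region between the paired fetal genes HBG1 and HBG2, chr11:5273371-5273670, was listed in all 17 tables and lay 2.29 kb from a target of sgHBG and 2.45 kb from one of sgHBG-sg2. It held 3, 2, 3 and 5 reads in the sgHBG libraries, against 7, 14, 0 and 2 reads in the sgGal4 libraries. In the sgHBG-sg2 libraries it held 6 and 3 reads. Its log2 ratio was -0.79 with sgHBG and -0.72 with sgHBG-sg2, where the targets on either side stood above 9. Loci outside the cluster listed in all 17 tables had medians of -0.91 with sgHBG and -1.35 with sgHBG-sg2. A ratio below 0 is therefore not particular to this region. It was called lowered with sgHS1-sg2, sgHS3-sg2 and sgHBB. Of the 26 listed entries in the cluster that are no target of their own table, 17 are this region. By limma 0 of the 26 were called raised (2 at an unadjusted p below 0.05 with the same fold limit), and 4 stood at 1 or more on the log2 scale. The top value was 1.88 with sgHS4, at -7.58 kb from its target, where the minus sign marks the HBB side (limma adjusted p = 0.244). That region overlaps the target of sgHS2, and the sgHS4 region at 1.54 overlaps the target of sgHBD-1kb. Some other entries among the 26 overlap the targets of sg3'HS1 or sgHS5.

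Median log2 ratios lay between 0.19 and 0.39 at all distances with members, and the highest single ratios lay far out. The 16 entries at 100 to 300 kb had a median log2 ratio of 0.33, with a highest value of 1.36. At 300 to 1000 kb the median of 59 entries was 0.39, at 1000 to 2000 kb that of 172 entries was 0.36, and beyond 2000 kb that of 203 entries was 0.19. The top values were 5.06 at 1000 to 2000 kb and 4.40 beyond 2000 kb. After the median of each table was taken off, the 4 medians were 0.18, 0.17, 0.20 and 0.12. Entries share libraries and loci across tables, so these medians are descriptions without a test. The 9 flank loci listed in all 17 tables, mostly below 0, lie 941 kb or more from a target. Entries at 100 to 300 kb therefore include none of them. The remaining flank entries, over all distances, had a median of 0.66. The medians by distance mix these classes in unlike shares, so a level course over distance cannot be read from them.

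**Figure D1:**
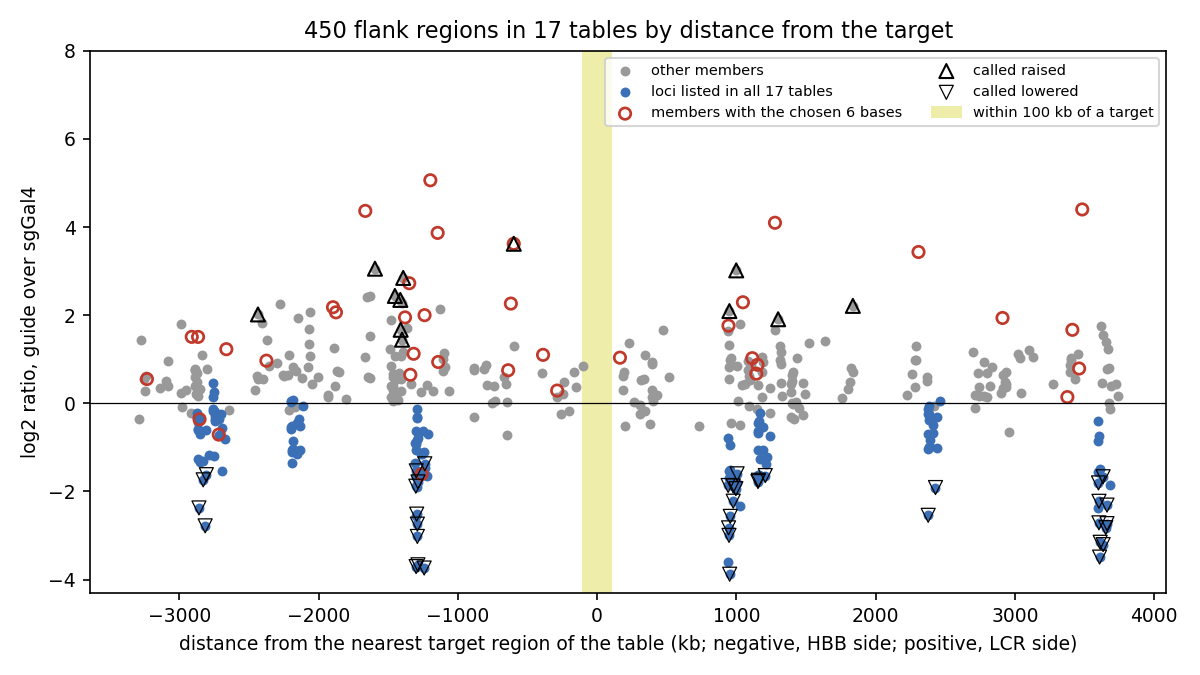
Log2 ratio of guide over sgGal4 for the 450 flank entries (y) against the signed distance in kb from the nearest target region of the same table (x). The band within 100 kb holds no entry, the loci listed in all 17 tables lie mostly below 0, and the entries above 3 lie 599 kb or more from a target.

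Outside the cluster, fewer regions were listed per Mb close by. There were 0 entries per Mb and table within 100 kb, 2.38 at 100 to 300 kb, 2.48 at 300 to 1000 kb, 5.06 at 1000 to 2000 kb and 3.98 beyond. The stretch within 100 kb covers only 1.28 Mb summed over tables, against 34 Mb at 1000 to 2000 kb, so few entries could be listed there. The cluster itself, with its 26 entries that are no target of their own table, is left out of these counts. The nearest DNA is also the richest in olfactory receptor genes, with 46.1 of their starts and 0 other protein-coding starts per Mb within 100 kb, but 4 and 15.3 per Mb at 1000 to 2000 kb. Over the flanks as a whole the density was 3.85 entries per Mb and table, beside 3.49 on the rest of chromosome 11 and 2.77 over the genome. Around olfactory receptor starts elsewhere (within 100 kb) it was also 3.49.

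The flanks as a whole were compared with all regions outside the cluster. Their median log2 ratio was higher than that of all regions in 13 of 17 tables and lower in 4, with a median difference of 0.12 and a range of -0.68 for sgHS4-sg2 to 1.68 for sgHBB. Loci listed in all 17 tables were 9 of the 173 flank loci (5.20%), against 3744 of 44667 loci outside the cluster (8.38%). At those 9 loci the median over tables of the flank medians was -1.12, against -1.18 for all such loci, and the flanks were the higher of the pair in 12 of 17 tables. At the remaining 297 entries the median was 0.66, against 0.66 for all remaining regions, and the flanks were the higher of the pair in 8 of 17 tables. Single tables differed more at the 9 loci, with -0.51 in the flanks against -1.03 over all such loci for sgHS3, -0.80 against -1.35 for sg3'HS1 and -1.53 against -1.98 for sgHBB.

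**Figure D2:**
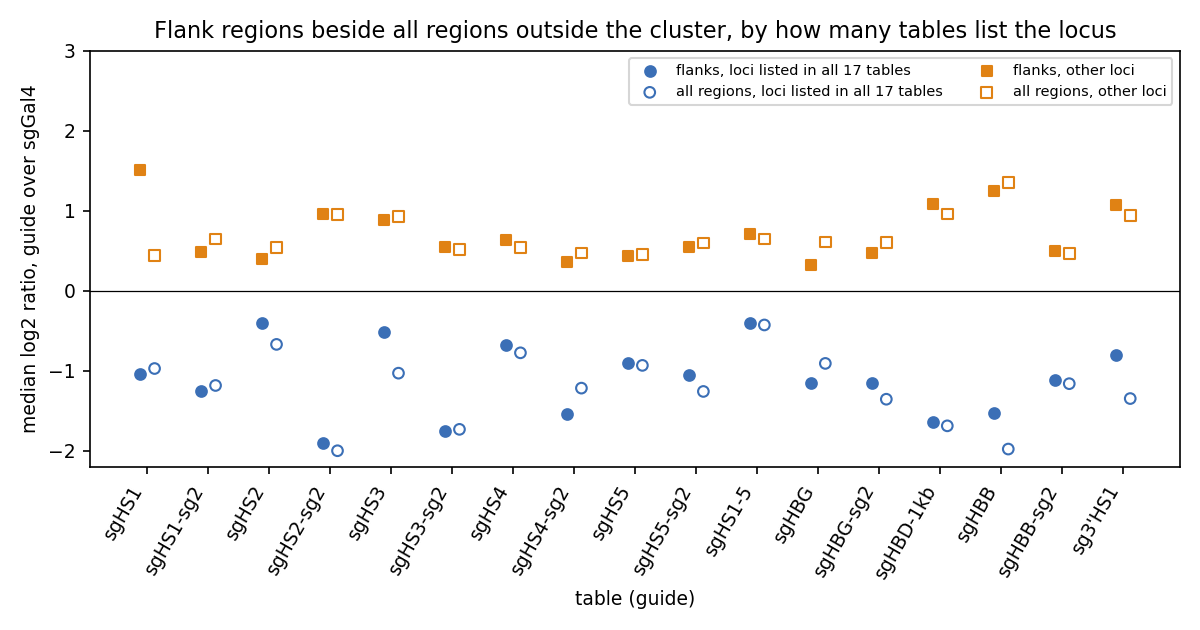
Median log2 ratio (y) of flank entries (filled) and of all regions outside the cluster (open) in each table (x), for loci listed in all 17 tables (circles) and for other loci (squares). Circles lie below 0 and squares above 0 in every table, for flanks and all regions alike, and the filled square of sgHS1 is a single entry.

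Position relative to genes was described next. Of the members, 40.7% were intergenic, 39.8% intronic, 11.1% in coding exons and 8.44% in untranslated exons of the GENCODE annotation. A start of a protein-coding gene lay within 1000 bp of 23.1% of members, beside 24.0% of all regions outside the cluster. Among loci not listed in all tables, entries within 1000 bp of a start had a median log2 ratio of 0.71 in the flanks and 0.71 over all regions, and entries further away 0.62 in the flanks and 0.63 over all regions. Members were somewhat richer in G and C, with a median of 57.8% against 53.7%.

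Limma called 12 members raised, 2.67% of them, where 1.65% of all regions outside the cluster were called so. They fell in 4 tables and at 11 loci, 599 to 2436 kb from the target. By table they were 5 of 31 members with sgHBD-1kb (background 9.44%), 4 of 27 with sgHBG (4.91%), 2 of 16 with sgHS3 (6.43%) and 1 of 19 with sgHBB (4.22%). The sgHBB table has 1 guide library, so its test takes the spread from sgGal4 alone. In all 12, the level of every guide library lay above that of every sgGal4 library. The raised calls were made on these same levels, so that order is no further support, and it was not counted over all regions. Elsewhere 0 members were called, where the background was 0.0237% for sgHS1, 0.52% for sgHS1-sg2, 0% for sgHS2, 1.12% for sgHS2-sg2, 1.11% for sgHS3-sg2, 0.00932% for sgHS4, 0.513% for sgHS4-sg2 and 0% for sgHS5. It was 0.506% for sgHS5-sg2, 0.0237% for sgHS1-5, 0.896% for sgHBG-sg2, 0.498% for sgHBB-sg2 and 0.0187% for sg3'HS1.

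The number of raised calls depended on single libraries and on how 0 reads were valued. It was 5 without sgGal4 replicate 1 (0.563% of all regions raised), 6 without replicate 2 (0.821%), 18 without replicate 3 (3.23%) and 22 without replicate 4 (3.5%). It was 7 without guide replicate 2 (0.701%), and 2 without guide replicate 1 in the 14 tables that can be fitted so (0.131%). With only the deeper sgGal4 replicates 1 and 2 it was 127 of 450, beside a background of 24.4%, and with 5 reads added to every region before the log it was 0, beside 0.0517%. The share of all regions called moved in the same direction each time.

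The highest of the 12 was chr11:4658224-4658523, 334 bp from the start of the olfactory receptor gene OR51D1, with sgHBD-1kb. It held 66 and 61 reads with the guide, against 2, 4, 1 and 1 reads with sgGal4, or 71.8 and 89.5 per 100000 listed reads against 3.45, 3.84, 8.49 and 8.53. The log2 ratio was 3.62 and the limma log2 difference 3.81 (SE 0.63, adjusted p = 0.0110). In the tables of sgHS1-5 and sgHS5, which list the same locus, the ratios were 0.75 and 0.44. All tables share the sgGal4 libraries, so the contrast between them rests on the guide libraries.

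A second locus with sgHBD-1kb, chr11:6256024-6256323, lies 307 bp from the start of FHIP1B, whose protein links cargo to the dynein motor. It held 42 and 22 reads with the guide, against 2, 7, 0 and 0 with sgGal4, for a log2 ratio of 3.02 (limma adjusted p = 0.0110). The overlapping region of the sgHS3 table held 10, 9 and 14 reads with the guide, against 1, 8, 0 and 0 with sgGal4 (log2 ratio 2.09, limma adjusted p = 0.0319). This start was listed in 11 tables, and its log2 ratio lay above 0 in each of them, between 0.55 and 3.02. Most of these ratios did not pass the test. At loci not listed in all tables, the median over all regions was also above 0 in every table, from 0.45 to 1.35. A ratio above 0 is therefore not particular to this start, and the tables share the sgGal4 libraries.

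With sgHBG the called regions lay at genes of several kinds. In an intron of ART1, an ADP-ribosyltransferase gene, chr11:3675710-3676009 held 30, 4, 26 and 41 reads with the guide, against 0, 1, 0 and 0 with sgGal4 (log2 ratio 3.05, limma adjusted p = 0.0128). A region 180 bp from the start of NUP98, which encodes a nuclear pore protein, held 14, 4, 16 and 34 reads with the guide, against 0, 2, 0 and 0 with sgGal4 (log2 ratio 2.44, limma adjusted p = 0.0157). The other calls of sgHBG were chr11:3870478-3870777, 6267 bp from the start of STIM1, at 1.44, and chr11:6576126-6576425 in an intron of DNHD1, a dynein-related gene, at 1.91. The ART1 locus was also listed with sgHS3-sg2, where its single library held 31 reads, against 0 in each sgGal4 library, at least 24.6-fold higher with the floor of 3 reads taken over the sgGal4 group.

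An intron of STIM1, the calcium sensor of the endoplasmic reticulum, held 11, 15 and 17 reads with sgHS3, against 2, 0, 0 and 1 with sgGal4, at a log2 ratio of 2.35. The same intronic locus reached 2.29 in the table of sgHS1-5 and 1.71 with sgHBD-1kb, neither of them called. Further calls of sgHBD-1kb were an intron of the potassium channel gene KCNQ1 at 2.02, a coding exon of PGAP2, a gene of GPI anchor remodelling, at 1.67, and an intergenic region nearest to RBMXL2 at 2.21.

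Lowered calls were more frequent, at 38 members or 8.44%, beside 11.2% of all regions outside the cluster, and all 38 stood at loci listed in all 17 tables. Among entries at such loci 24.8% were called lowered in the flanks, against 25.01% over all regions outside the cluster. Ratios lay below 0 in 146 of the 153 flank entries of this class. In 37 of the 38 calls the level of every guide library lay below that of every sgGal4 library. The calls were made on these same levels, so that order adds nothing to them, and it was not counted over all regions. Many of these calls had an sgGal4 library at 0 reads, where the order rests on the level given to 0 reads. By table the lowered background was 18.5% for sgHS1, 11.9% for sgHS1-sg2, 13.5% for sgHS2-sg2, 9.76% for sgHS3, 31.1% for sgHS3-sg2, 21.9% for sgHS4-sg2 and 19.2% for sgHS5-sg2. It was 12.8% for sgHBG, 22.4% for sgHBG-sg2, 18.7% for sgHBD-1kb, 37% for sgHBB, 29.1% for sgHBB-sg2 and 0% in the remaining tables. Without sgGal4 replicate 1 there were 17 lowered calls beside 6.94% of all regions, without replicate 2 there were 23 beside 8.05%, and without guide replicate 1 there were 3 beside 1.81%. Of the 38, 12 came from the 3 tables with 1 guide library (sgHS2-sg2, sgHS3-sg2 and sgHBB), whose spread is that of sgGal4 alone.

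The most often lowered locus was chr11:8910011-8910310, intergenic and nearest to AKIP1, which passed in 10 tables. It held a median of 1 read in the guide libraries, with 20 of 42 at 0 and a highest value of 8, against 8, 11, 2 and 0 reads in the sgGal4 libraries. Its log2 ratios ran from -3.49 with sgHS2-sg2 to -0.40 with sgHS1-5. A locus in an intron of FHIP1B, chr11:6253444-6253743, passed in 9 tables and held the lowest ratio of all members, -3.88 with sgHS2-sg2. There the guide libraries had a median of 1 read and a highest value of 7, against 14, 19, 0 and 2 with sgGal4. That locus lies 2273 bp from the FHIP1B start described above, and the ratios at the pair run in opposite directions. So do the medians over all regions of loci listed in all tables and of other loci.

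Both STIM1 loci among these are intronic. The one at chr11:4010575-4010874 passed in 7 tables, with a lowest ratio of -3.66 for sgHS1-sg2, and held a median of 2 reads in guide libraries, against 18, 20, 1 and 1 with sgGal4. At chr11:4006266-4006565 it passed in 3 tables, with ratios of -3.74 for sgHBB, -3.70 for sgHS3-sg2 and -2.74 for sgHS1-sg2, the first 2 from single guide libraries. A coding exon of TRPM5, a cation channel of taste cells, passed in 4 tables, with -2.78 for sgHBD-1kb as its lowest. The region near HPX, the gene of the haem-binding serum protein hemopexin, passed in 3 tables and the intron of CYB5R2, a cytochrome b5 reductase gene, in 2.

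The other 2 of the 9, in introns of KCNQ1 and of OSBPL5, which encodes an oxysterol-binding protein, were called in 0 tables and had medians of -0.28 and -0.54. All 9 loci held 8 to 20 reads in each of the 2 deep sgGal4 libraries and at most 5 in the shallow ones. How regions came to be listed is not given in the sources used here, and its part in these negative ratios was not tested.

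The 5 members with the highest ratios were not called. In the sgHS4 and sgHS5 tables, limma called 0.00932% and 0% of all regions outside the cluster raised, and 0.0187% in that of sg3'HS1. The top ratio was 5.06, for chr11:4111834-4112133 with sgHS4, in an intron of STIM1 and 4046 bp from the start of RRM1, the large subunit gene of ribonucleotide reductase. It held 312 and 110 reads with the guide, against 0 reads in each of the 4 sgGal4 libraries, so the ratio depends on the level given to 0 reads. By reads it was at least 111-fold higher, with the floor of 3 reads over the sgGal4 group (limma adjusted p = 0.128).

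Next came chr11:8710302-8710601 with sg3'HS1, in an untranslated exon of RPL27A, a ribosomal protein gene, at a log2 ratio of 4.40 (limma adjusted p = 0.0590). It held 188 and 49 reads with the guide, against 6, 5, 0 and 1 with sgGal4. Other tables list the locus at 0.56 to 1.12. A region 757 bp from the start of PPFIBP2, a liprin gene, held 111 and 19 reads with sg3'HS1, against 8, 10, 0 and 0 with sgGal4, at a ratio of 3.43 (limma adjusted p = 0.0648). Both regions were well above every sgGal4 library in each guide library. They were picked by ratios from these same libraries, so that order is no further support.

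With sgHS5, 3 loci stood high, and replicate 1 carried most of each. The region nearest to ART5, chr11:3647555-3647854, held 178, 71 and 36 reads with the guide, against 1, 4, 1 and 0 with sgGal4 (ratio 4.37). Per 100000 listed reads that is 114, 16.4 and 14.7 with the guide, against 1.08, 2.35, 5.36 and 0. A coding exon of DNHD1 held 169, 44 and 30 reads with the guide, against 2, 5, 0 and 1 with sgGal4 (ratio 4.10), and a region nearest to RRM1, chr11:4167293-4167592, held 124, 41 and 23, against 1, 2, 1 and 0 (ratio 3.87). Limma adjusted p was 0.0926, 0.141 and 0.161. All guide libraries lay above all sgGal4 libraries at these loci. The loci were picked by ratios from the same libraries and the order was not counted over all regions, so it adds no support.

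The same 3 loci were listed for sgHS1-5. Their ratios there were 2.41 near ART5, 2.14 near RRM1 and 1.67 in DNHD1. At the ART5 locus the 6 sgHS1-5 libraries held 4, 10, 1, 0, 51 and 65 reads, against 1, 4, 1 and 0 with sgGal4. Replicates 5 and 6 are high there and the others overlap sgGal4 on the per-library scale. None passed limma in that table (adjusted p = 0.209, 0.176 and 0.246).

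**Figure D3:**
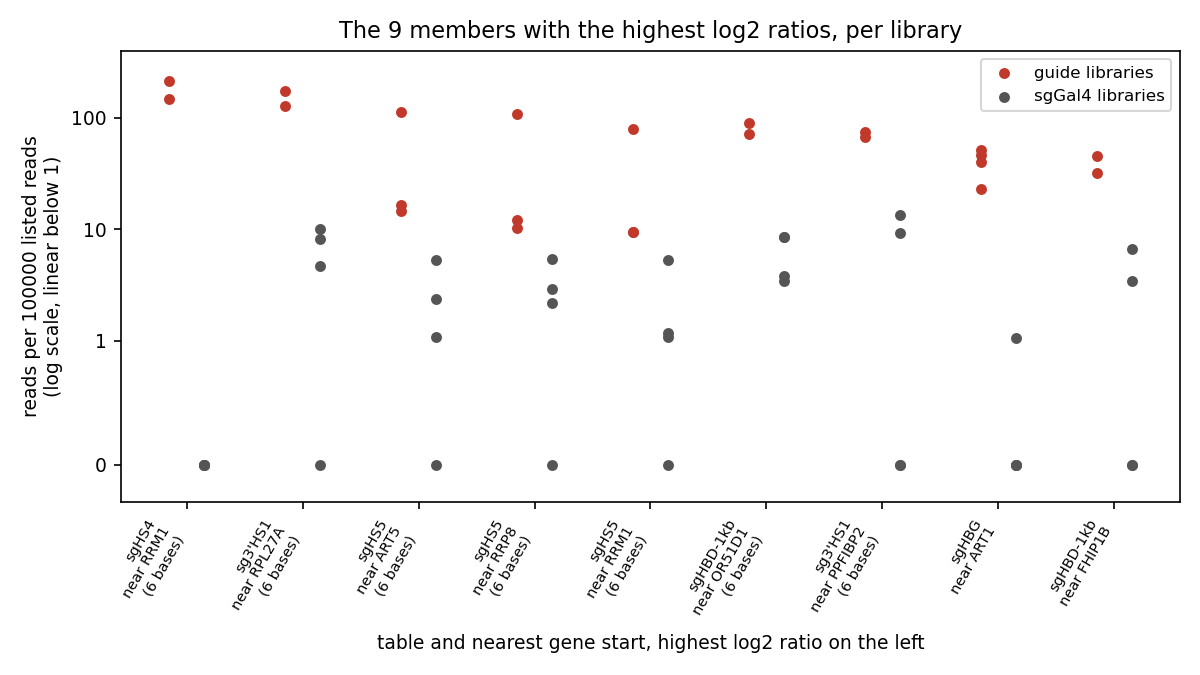
Reads per 100000 listed reads outside the cluster (y, logarithmic above 1) in each guide library (left of each pair) and each sgGal4 library (right) for the 9 members with the highest log2 ratios. Guide libraries lie above sgGal4 libraries for all 9, which were picked by their ratios. With sgHS5, 1 library lies far above the other 2, as with 114 against 16.4 and 14.7 near ART5.

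In 8 further tables the highest member passed in 0 of them. It was 2.06 near ZNF195 for sgHS2-sg2, 1.79 in TSPAN32 for sgHS5-sg2, 1.52 at the start of ART5 for sgHS1-sg2 and 1.51 near TSSC4 for sgHS1. It was 1.39 near C11orf16 for sgHS2, 1.21 nearest to the LIM-domain gene LMO1 for sgHBB-sg2, 1.17 near STIM1 for sgHBG-sg2 and 0.84 at the FHIP1B start for sgHS4-sg2. Limma adjusted p-values of these ran from 0.0662 to 0.509.

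The bases printed above were then set beside the ratios. With sgHS4 the motif was ATGAGANGG, present in 4.09% of listed regions outside the window on either strand and in 3 of 33 members. Those 3 members had log2 ratios of 5.06, 1.94 and 0.79, against a median of 0.34 and a highest value of 1.34 in the members without it. The RRM1 site equals the target over 11 bases next to the NGG. Its remaining 9 bases do not match at any position. The sites of the other 2 members, nearest to RIC3 and DENND2B, match over 10.

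For sgHS5 the motif was AGGGACNGG, in 5.70% of listed regions outside the window and in 5 of 63 members. Their ratios were 4.37, 4.10, 3.87, 1.67 and 0.29, against a median of 0.35 and a highest value of 1.24 without it. The 3 sgHS5 loci described above are thus the top 3 with the motif, with runs of 9, 7 and 7 bases. The lowest of the 5, nearest to OR51L1, has a run of 6.

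The widest set came from sg3'HS1, whose motif GAGGTCNGG was in 18.9% of listed regions outside the window and in 7 of 34 members. All 7 had ratios between 1.51 and 4.40, with a median of 2.29, against a median of 0.15 and a highest value of 1.92 in the 27 without. The 2 highest are the RPL27A and PPFIBP2 regions described above. Others lie nearest to STIM1 (2.73 and 2.00), CCKBR (2.29) and C11orf21 (1.51). At the higher STIM1 region, 197 bp from that gene's start, 34 and 3 reads were held with the guide, against 0, 2, 0 and 0 with sgGal4.

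The sgHS2-sg2 table had 6 of 29 members with TAGAAGNGG, at ratios of 0.87 to 2.06 and a median of 1.07, against 0.49 without it. This guide has 1 library. The sgHBD-1kb table had 5 of 31 with CCCCTTNGG, at 0.55 to 3.62 and a median of 0.97, against 0.43. The top one is the OR51D1 region, the single called member with its table's motif. With sgHS1, the 1 member that holds GGAGACNGG, near TSSC4, had the highest ratio of the 10 at 1.51, and its run covers 11 bases.

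Not every table had such members. With sgHBG-sg2 the 2 members that hold the motif had ratios of -0.71 and -1.61, below the median of -0.17 without it. Both are loci listed in all tables. In the sgHBB table the 2 with the motif had 2.26 and 0.14. The tables of sgHS1-sg2, sgHS5-sg2 and sgHS1-5 had 3, 1 and 2 members with theirs and a highest member without it. The sgHS1-5 table has targets at HS1 to HS5, but only 1 motif was kept for it, GAGTAGNGG of HS3. Its highest member, at 2.41 near ART5, holds the AGGGACNGG site printed above for sgHS5. So do its members at 2.14 near RRM1 and 1.67 in DNHD1. In those of sgHS2, sgHS3, sgHS3-sg2, sgHS4-sg2, sgHBG and sgHBB-sg2, 0 members held it.

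Over all tables, members with the motif numbered 37 (8.22%), that is, they held the chosen motif of their table, beside 7.61% of listed regions outside the window. Their median log2 ratio was 1.51, against 0.19 for the 413 without. The 2 sets differ in listing as well. Nearly all of the 153 entries at loci listed in all 17 tables were without the motif, and 146 of the 153 lay below 0. Medians and shares without the motif, here and by table, are lower in part for that reason. The share at a ratio of at least 1 was 64.9% with and 15.7% without, where 19.8% of all members and 17.3% of all regions outside the cluster stood that high. Of the 27 members at 2 or above, 13 held the motif, and of the 11 highest, 8 did. The median with the motif was the higher in 10 of the 11 tables that have such members, sgHBG-sg2 being the exception. Of the 12 raised calls, 1 held it. Members share libraries, and the number of bases was settled after values had been seen, so no p is given.

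**Figure D4:**
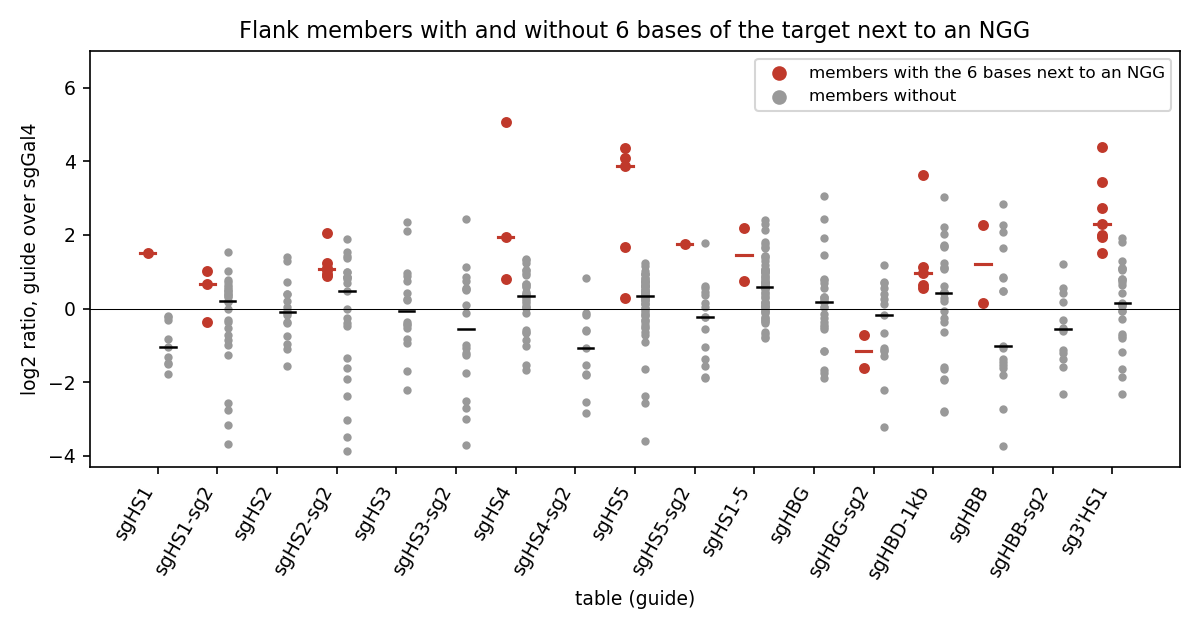
Log2 ratio of every flank entry (y) by table (x), split into entries that hold the table's 6 chosen bases next to an NGG (left of each pair) and entries that do not (right), with medians as bars. In the tables of sgHS4, sgHS5 and sg3'HS1 the entries with the bases reach 5.06, 4.37 and 4.40, and entries without stay at or below 1.34, 1.24 and 1.92.

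Shares of reads describe the flanks as a whole. The share is the percent of a library's reads in listed regions outside the cluster that fall in members. It was compared between guide and sgGal4 libraries by an exact two-sided permutation test within each table, adjusted over 17 tables. The guide mean was higher in 13 tables and lower in 4, with a median log2 ratio of 0.22. In 7 tables every guide library lay above every sgGal4 library, in 1 every guide library lay below, and in 9 they overlapped. After adjustment, 0 of the 17 passed 0.05 in the exact test (smallest adjusted p = 0.324), and 1 had an unadjusted p below 0.05. With these group sizes no adjusted p could fall under 0.135 in the exact test, so 0 passing says nothing about the flanks.

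That table was sgHBG, with shares of 0.416%, 0.462%, 0.413% and 0.442% in its libraries, against 0.347%, 0.304%, 0.391% and 0.337% in the sgGal4 libraries. The means were 0.433% ± 0.0231 with the guide and 0.345% ± 0.0360 with sgGal4 (SD, n = 4 each; exact permutation p = 0.0286, the smallest this design allows). With 2 guide libraries the smallest p is 0.133, so no such table could pass alone. The sets were apart but small, with a log2 ratio of mean shares of 0.33.

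Wider gaps were seen in other tables. With sg3'HS1 the shares were 0.470% and 0.502%, against 0.230% to 0.297% with sgGal4 (exact permutation p = 0.133). With sgHS4 they were 0.426% and 0.464%, against 0.222% to 0.299% (exact permutation p = 0.133). Once regions with the chosen motif were left out of members and total alike, sg3'HS1 had a mean of 0.316% against 0.277% in sgGal4, and sgHS4 had 0.290% against 0.258%. Both sets then overlapped. The log2 ratio of mean shares fell to 0.19 for sg3'HS1, against 0.84 with all regions, and to 0.17 for sgHS4, against 0.78.

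For sgHBG and sgHBD-1kb the guide libraries stayed above sgGal4 without those regions, at means of 0.481% against 0.351% and of 0.342% against 0.243%. No sgHBG member held the motif, so the rise of its guide mean from 0.433% came from the smaller total alone. The single sgHBB library went up to 0.761%, against 0.218% to 0.338% in sgGal4. Its log2 ratio of shares was 1.42, against 0.39 with all regions. Only 17 of its 19 members were left, so this rise too came from the smaller total and is no gain of reads in the flanks. With sgHS3, whose 16 members held no motif, the log2 ratio likewise went from -0.24 to 0.20. Over the 17 tables the median log2 ratio was 0.20 without the regions, close to the 0.22 with them.

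**Figure D5:**
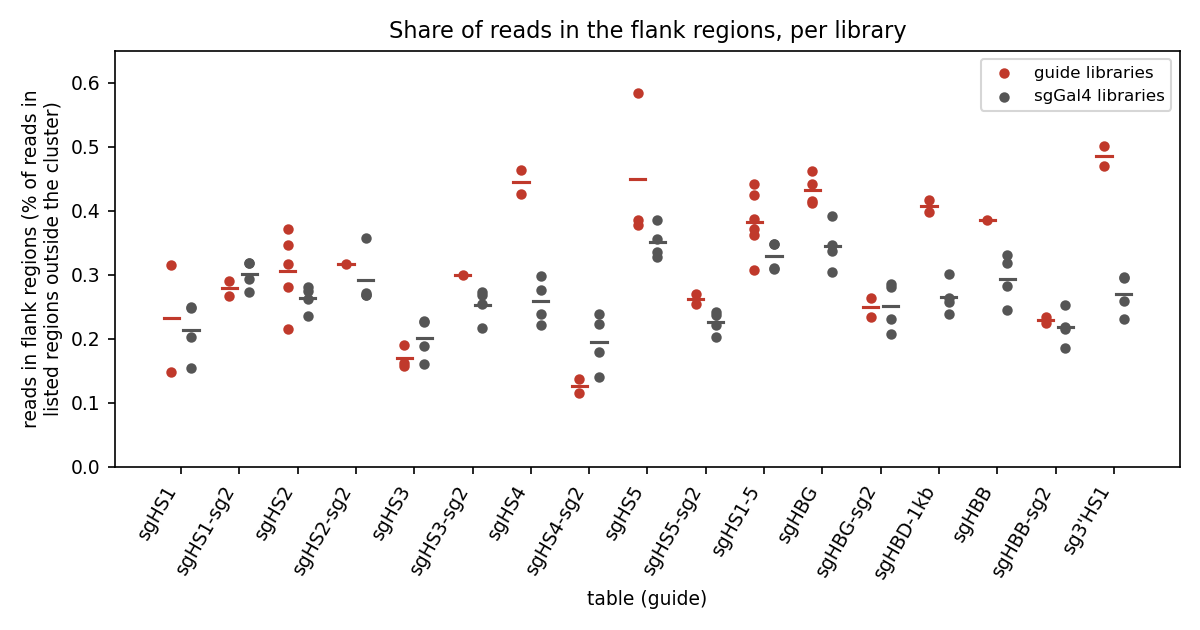
Percent of a library's reads in listed regions outside the cluster that fall in flank regions (y), for guide libraries (left of each pair) and the 4 sgGal4 libraries (right) of each table (x), with bars at the means. The guide libraries of sgHS4, sgHBG, sgHBD-1kb and sg3'HS1 lie above all sgGal4 libraries, and those of sgHS4-sg2 lie below.

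The closest flank was examined by itself. Members within 300 kb were listed in 7 tables, 16 entries in all, at 8 loci. The share of reads in them was higher with the guide in 4 of 7 tables and 0 passed adjustment in the exact permutation test (smallest adjusted p = 0.111). No adjusted p could fall under 0.0556 here, so that count carries no information. With sgHS2 the 1 such member, chr11:5497487-5497786 and 196 kb from HS2, took 0.0170%, 0.0430%, 0.0281%, 0.0245% and 0.0297% of reads, against 0.0154%, 0.0124%, 0.0125% and 0% with sgGal4. All 5 guide libraries lay above all 4 sgGal4 libraries (exact permutation p = 0.0159, adjusted p = 0.111). In reads these were 6, 3, 3, 6 and 13 with the guide, against 7, 10, 1 and 0 with sgGal4, so the order rests on few reads. The same locus, nearest to OR52D1, had log2 ratios of 0.72 with sgHS2, 0.62 with sgHS5 and 0.30 with sgHS1-5, but -0.52 with sgHS1-sg2.

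Gene lists of the flanks were described by their listed members. Of 67 olfactory receptor genes 4 had a member within 1000 bp of their start (OR51D1, OR51T1, OR52B6 and OR52K1), which is 5.97%, whereas 33 of the 82 genes that are not olfactory receptors did, or 40.2%. Among the 34 members nearest to an olfactory receptor start the median log2 ratio was 0.41, and 1 was called raised and 0 lowered. TRIM genes, which encode ubiquitin ligases of the antiviral response among other proteins, lie partly amid the receptors, and 6 of 8 had a member within 1000 bp. Their 18 members had a median of 0.77, with 0 called either way by limma (1 raised and 0 lowered at an unadjusted p below 0.05 with the fold limit) and a highest ratio of 2.26 near TRIM68.

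The imprinted domain toward the telomere, with the growth factor gene IGF2 and the cell-cycle inhibitor gene CDKN1C, had 68 members nearest to 12 of 14 listed genes. Its median was 0.15, and 1 member was called raised and 4 lowered, all 4 at the TRPM5 exon. Genes of translation, replication and the nuclear pore had 76 members, of which 2 were raised (nearest to NUP98 and RRP8) and 10 lowered (all at the STIM1 introns, whose nearest start is RRM1), with a median of -0.05. These counts sit beside 2.67% raised and 8.44% lowered over all members. The imprinted list includes the TRPM5 and KCNQ1 loci listed in all 17 tables, and the last list both STIM1 introns, each with 17 entries. The receptor and TRIM lists include no such locus. Medians of the lists differ in that mix, so they are no comparison of gene classes.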

How the data were processed

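DNA recovered with biotinylated dCas9 in K562 cells was analysed in 46 of 61 samples, 42 with targeting guides and 4 with sgGal4, grouped by title. Reads were aligned to hg19 and tools named are Bowtie 1.0.0 and Picard, per the submitters' processing notes; only uniquely aligned reads were retained, per the labels' protocols. The authors deposited 17 tables, each with 1 guide against sgGal4, of log2 levels per 300 bp region, normalised within a table. How regions were selected is not given in the sources used here.

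In each library the level followed a straight line in log2(reads + 1), which gave whole reads back for 100% of values (tolerance 0.01). The ratio of mean linear levels differed from the deposited one by at most 1.39e-08. Limma 3.58.1 (R 4.3.3, eBayes without trend) was fitted to all regions of a table, with Benjamini-Hochberg adjustment within it, and tested on simulated data. Shares of reads were compared by exact permutation. Python 3.11.15 with numpy 2.4.6 and pandas 2.3.3 served for the rest, with GRCh37 sequence and GENCODE 44 genes lifted to it.

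Regions named were members called (the 15 largest where over 30), the loci listed in most tables, the highest and lowest of all, the highest per table and the nearest on each side. The bases of each target were chosen on regions outside the window, and their number, 6, was settled after 6, 7 and 8 and the members' values had been seen. Members and lists were chosen with earlier results of these data known. Tables share the sgGal4 libraries, so their results are not independent, and none are correlated or overlapped here. Lower bounds on folds cover counting error only. Guide sequences were not used here. A called member of the sgHBB table and another member are not reported here.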

Additional observations from a re-analysis of the deposited data

Results flagged for a closer look

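In the sgHS2-sg2 table, sgGal4 replicate 4 had 0.3576% of its reads in the flanks, far above the 0.269% to 0.271% of the other sgGal4 replicates. At 3 raised members a single sgGal4 library, replicate 2, held all sgGal4 reads, and the other 3 held 0. These were the KCNQ1 intron with sgHBD-1kb at 2.883 reads per 100000, the ART1 intron with sgHBG at 1.067 and the NUP98 region with sgHBG at 2.133. In all, 4 of 46 groups had a library so far from the rest. Chance gives about 1 in 20 groups, a rate that does not apply to the 3 groups in which the other libraries are all at 0.

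The first and second guides to HS4 moved apart in the share of reads in the flanks. Both sgHS4 libraries lay above all sgGal4 libraries, with a log2 ratio of 0.7794, and both sgHS4-sg2 libraries lay below them, at -0.63. The difference between the guides was not tested.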

How the results depend on the processing

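Raised calls numbered 12 and lowered calls 38 as reported. With 5 reads added before the log they were 0 and 5, and at a limma p of at most 1e-05 they were 0 and 0. With sgGal4 replicates 1 and 2 only there were 127 raised calls. Leaving out 1 replicate gave 2 to 22 raised and 3 to 39 lowered calls. The KCNQ1 intron with sgHBD-1kb was at -0.31 with 5 reads added. With the replicate block 32 of 384 members were raised, in 14 tables, beside 7.91% of all regions; same-numbered libraries did not deviate together, so the numbers pair nothing.

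The median log2 ratio of flank shares, 0.22, was 0.107 with a mean of at least 5 reads required and 0.112 without the top 1% of regions; it was 0.187 to 0.25 with 1 replicate left out. That within 300 kb, 0.113, was 1.06 on the level scale and 1.04 with sgGal4 replicates 1 and 2 only, and -0.0240 to 0.773 with 1 replicate left out, the last without sgGal4 replicate 3; within 100 kb there is no member and no value. The difference of medians, 0.12, was 0.322 with sgGal4 replicates 1 and 2 only and -0.0118 with loci listed in all tables left out, an alternative chosen after seeing the data, and 0.0893 to 0.177 with 1 replicate left out. The difference of medians by motif, 1.29, was 1.78 with 7 bases and 1.67 with 8, also chosen after seeing the data. It was not split by whether a locus was listed in all tables. The cause of these shifts was not tested. The shallow sgGal4 replicates 3 and 4 limit what a low count can show.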
